A study of Homo sapiens with 18 samples.

Results

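The mitochondrial ribosome and import genes were the 101 measured genes whose symbol begins with MRPL, MRPS, TIMM or TOMM followed by a digit, out of 14884 genes with a single symbol on the array. Of these 101 members, 96 are protein coding. There were 48 MRPL genes, 25 MRPS genes and 23 import genes, the last made up of 10 TOMM and 13 TIMM genes. The other 5 are pseudogenes or antisense transcripts that carry a member's name, and they were counted apart. The RefSeq coding genes MRPL12, MRPS18C, MRPS24, MRPS6, TIMM23B and TIMM29 also fit the rule but had no named probe set here. A probe set counted as named when it carried a single symbol. Genes without one may still be on the array in a probe set with several symbols. Where a symbol had several probe sets, the one with the highest mean signal over all arrays stood for it.

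The samples were 18 arrays (Affymetrix Human Gene 2.0 ST) of RNA from U937 cells, an established human monocytic line derived from a histiocytic lymphoma. The groups, with 3 arrays in each, were decitabine (5-aza-2'-deoxycytidine), panobinostat, valproic acid, decitabine plus panobinostat, decitabine plus valproic acid, and control. Decitabine, which traps DNA methyltransferases, was given as 3 pulses of 24 h each. Panobinostat and valproic acid, both inhibitors of histone deacetylases (HDAC), were present for 24 h, together with the last decitabine pulse in the combinations. Sample names carry the numbers 50 for decitabine, 8 for panobinostat and 1 for valproic acid with no unit, so the inhibitor doses were not taken as matched. All cells were grown in RPMI medium with fetal calf serum and antibiotics. Whether replicate arrays stem from separate cultures is not said in the labels, so the p-values below measure only the spread between these arrays.

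The mitochondrial ribosome translates the few messenger RNAs encoded by mitochondrial DNA, all of which specify subunits of the respiratory chain and ATP synthase. Its proteins are encoded in the nucleus, made in the cytosol and imported, the MRPL genes being named for the large and the MRPS genes for the small subunit. Proteins enter through the TOM complex of the outer membrane. The TIM23 complex then passes those with a presequence into or across the inner membrane, whereas small TIM chaperones carry hydrophobic carrier proteins across the intermembrane space to the TIM22 complex.

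Levels are deposited log2 signals, so a difference of 1 is a 2-fold difference. Array medians over all probe sets lay between 3.81 and 3.87, and values between 2.29 and 14.57. The median coding member had a mean level of 7.83, and 2 of the 96 lay below the median level of all genes, 4.64. Signal is a property of the probe set, so a brighter or dimmer probe set does not stand for more or less transcript of its gene. A gene was called when the Benjamini-Hochberg adjusted p of limma's moderated test was under 0.05 over all 14884 genes. Of the 8 markers listed for U937, 5 had a named probe set (CD4, LYZ, MPO, SPI1 and CD68). MPO had a mean level of 12.3 in controls and CD4 of 9.74. Bulk arrays cannot tell fewer cells of a kind from less RNA per cell.

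The promoters of 6 members are shown because these genes carry the contrasts described below: MRPL1 and TIMM9 fell furthest among the ribosome and import members with a listed promoter, MRPL53 was higher, MRPS12 was lower with the HDAC inhibitors alone, and MRPS11 and TIMM13 departed from additivity. Each is the 150 bases before the RefSeq start site, 5′ to 3′ on the gene's own strand, in build GRCh38.p14. Capitals mark matches to the motifs searched, on either strand. The regions are chr4:77862680-77862829 (+) for MRPL1, chr14:58427532-58427681 (-) for TIMM9, chr2:74472681-74472830 (-) for MRPL53, chr19:38930794-38930943 (+) for MRPS12, chr15:88467558-88467707 (+) for MRPS11 and chr19:2427587-2427736 (-) for TIMM13.
MRPL1: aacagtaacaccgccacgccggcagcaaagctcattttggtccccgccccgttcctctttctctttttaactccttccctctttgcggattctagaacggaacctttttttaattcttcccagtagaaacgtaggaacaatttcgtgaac
TIMM9: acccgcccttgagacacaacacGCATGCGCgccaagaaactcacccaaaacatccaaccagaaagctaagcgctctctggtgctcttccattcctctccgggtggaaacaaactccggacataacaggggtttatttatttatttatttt
MRPL53: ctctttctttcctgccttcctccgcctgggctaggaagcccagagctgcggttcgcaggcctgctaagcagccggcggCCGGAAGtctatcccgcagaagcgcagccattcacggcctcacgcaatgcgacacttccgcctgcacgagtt
MRPS12: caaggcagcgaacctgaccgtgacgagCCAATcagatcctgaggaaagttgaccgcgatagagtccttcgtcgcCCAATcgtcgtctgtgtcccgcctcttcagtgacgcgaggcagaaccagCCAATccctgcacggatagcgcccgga
MRPS11: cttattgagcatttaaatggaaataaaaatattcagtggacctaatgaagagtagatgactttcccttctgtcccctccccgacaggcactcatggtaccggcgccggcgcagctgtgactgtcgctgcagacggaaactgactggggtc
TIMM13: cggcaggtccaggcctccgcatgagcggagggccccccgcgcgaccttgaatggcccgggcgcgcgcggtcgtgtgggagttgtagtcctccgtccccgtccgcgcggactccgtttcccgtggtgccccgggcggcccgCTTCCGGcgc
TIMM9 held an NRF1 match on the opposite strand, MRPL53 an ETS match on its own strand 72 bases before the start site, and TIMM13 an ETS match on the opposite strand 10 bases before it. MRPS12 held 3 CCAAT boxes, at 123, 76 and 27 bases. The stretches of MRPL1 and MRPS11 held none of the motifs.

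Across the family, 86 of the 96 coding members matched a RefSeq promoter of 300 bases, from 250 before to 50 after the start site. Motifs were searched on both strands: GCGCATGC for NRF1, a factor of nuclear genes for mitochondrial proteins, CCGGAAG for the ETS factors that include GABPA, ATGGCGG for YY1, CACGTG for the E-box that MYC binds, and CCAAT. No motif contains another. ETS matches were found in 37 member promoters (43.0%), against 14.2% of 15843 coding promoters. YY1 matches stood in 27 (31.4%), against 7.63% of all, and NRF1 matches in 8 (9.30%), against 4.26%. At least 1 of these 3 motifs was present in 60 of the 86 member promoters (69.8%), against 22.9% of all. E-boxes were in 8 member promoters (9.30%), against 8.88% of all, and CCAAT boxes in 27 (31.4%), against 36.4%.

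Decitabine plus panobinostat lowered much of the family. Of 101 members 62 were called lower than control and 2 higher, where 23.2% of all genes were called, 12% lower and 11.2% higher. The median change of the members was -0.64, beside -0.02 over all genes tested. Members are brighter than most genes, and among the 6921 genes with a mean level of at least 5, 23.3% were called lower, with a median change of -0.12. In 72 members the 3 treated arrays all lay below the 3 controls, which held for 18.7% of all genes. By role, 26 of 48 large-subunit genes fell, 15 of 25 small-subunit genes, 8 of 10 TOMM genes, 5 of 6 genes of the TIM23 complex and 6 of 7 genes of the TIM22 complex and small TIM chaperones. The median change was -0.64, -0.59, -0.70, -1.005 and -0.81 in these 5 groups, in that order.

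**Figure D1:**
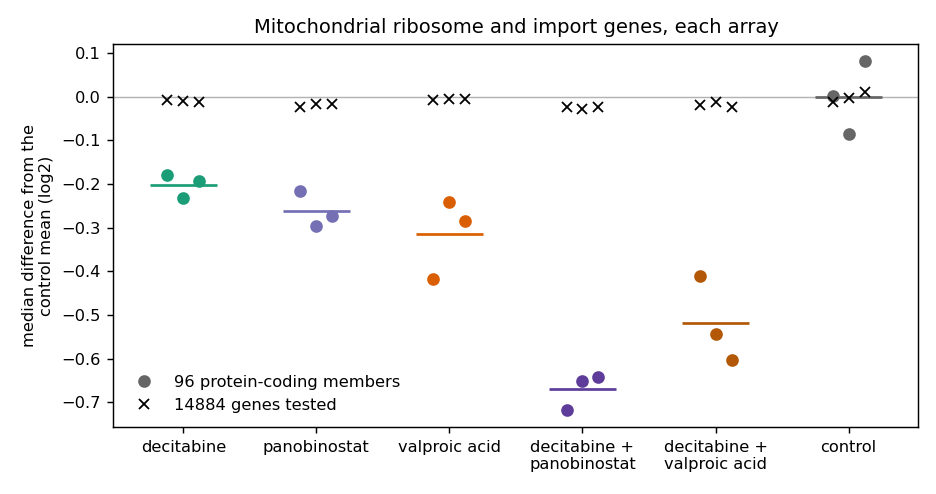
Median difference from the control mean (log2) of the 96 protein-coding members on each of the 18 arrays (circles, bars give the group mean) and of all 14884 genes (crosses). The 3 decitabine plus panobinostat arrays lie at -0.72, -0.65 and -0.64, below every array of the single agents, while the crosses stay near 0.

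In the large subunit the biggest fall was that of MRPL21, the counterpart of a bacterial large-subunit protein. Its log2 signal was 4.89, 5.81 and 6.42 with decitabine plus panobinostat, against 7.53, 7.25 and 7.91 in control. The groups did not overlap, although the treated arrays were widely spread, and the change was -1.85 ± 0.35 (SE, limma adjusted p = 0.000855), or 3.61-fold lower. MRPL1, a protein of the mobile stalk near the exit site for transfer RNA, had signals of 6.94, 6.05 and 6.07 with the combination, against 8.19, 7.81 and 7.92 in control. Every treated array was below every control, and the change was -1.62 ± 0.23 (SE, limma adjusted p = 6.15e-05). MRPL2 lies close to the peptidyl transferase centre, where peptide bonds are made. Its signals were 8.32, 8.44 and 8.67 with the combination and 9.98, 9.75 and 9.91 in control, a tight separation with a change of -1.40 ± 0.13 (SE, limma adjusted p = 1e-06).

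MRPL54, MRPL4, MRPL37 and MRPL3 fell by 1.23, 1.22, 1.19 and 0.95 on the log2 scale. MRPL37 and MRPL54 have no bacterial counterpart, whereas MRPL4 and MRPL3 have one. MRPL37 had 9.43, 9.44 and 9.30 with the combination, against 10.65, 10.41 and 10.68 in control, without overlap (limma adjusted p = 4.18e-06). The call for MRPL54 was lost when the first decitabine plus panobinostat array was left out (limma adjusted p = 0.067). MRPL23, a protein at the exit of the nascent chain tunnel and the dimmest large-subunit probe set, did not pass the test, at -0.06 ± 0.19 (SE).

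MRPL53, a large-subunit protein without a bacterial counterpart, was the single coding member called higher. Its signals were 10.96, 11.03 and 10.57 with decitabine plus panobinostat, against 10.36, 10.49 and 10.52 in control. The lowest treated array lay just above the highest control, and the change was 0.40 ± 0.14 (SE, limma adjusted p = 0.047). With arrays centred on their medians it was 0.23 and no longer called (adjusted p = 0.233), and of the fits leaving out 1 array only that without the third treated array kept the call. With decitabine plus valproic acid MRPL53 rose by 0.63 ± 0.14 (SE, limma adjusted p = 0.00461), a call kept whichever array was left out.

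The largest small-subunit fall was that of MRPS15, which binds ribosomal RNA early in assembly in bacteria; it was singled out after its values were seen. It had 9.82, 9.78 and 9.81 with decitabine plus panobinostat, against 10.85, 10.75 and 10.92 in control. These arrays were closely grouped and far apart between conditions, with a change of -1.03 ± 0.09 (SE, limma adjusted p = 7.42e-07). MRPS18A and MRPS18B, relatives of one bacterial protein, fell by 0.86 and 0.71 on the log2 scale. MRPS18A is named for the small subunit but sits in the large one in structures of the human ribosome. MRPS10 also fell, by 0.36, and MRPS2, the dimmest small-subunit probe set, gave -0.26 ± 0.15 (SE, limma adjusted p = 0.273).

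The TOM complex showed falls in its receptors, its channel and its small subunits. TOMM20, the receptor that binds presequences, had 5.99, 7.01 and 5.70 with the combination, against 7.47, 7.76 and 7.51 in control. The treated arrays were scattered but all lower, with a change of -1.34 ± 0.37 (SE, limma adjusted p = 0.0133), and the call was lost without the first or the third treated array. TOMM40 forms the channel, and its signals of 10.08, 10.21 and 9.97 were below the control values of 11.15, 10.91 and 11.15. Its change was -0.98 ± 0.13 (SE, limma adjusted p = 4.99e-05), but a second, dimmer TOMM40 probe set gave -0.01.

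TOMM22, the receptor that organises the complex, fell by 0.80, TOMM70, the receptor for carrier proteins, by 0.54 and TOMM6, a small subunit, by 0.45 on the log2 scale. TOMM20L, a relative of TOMM20, was called at -0.39 ± 0.13 (SE, limma adjusted p = 0.0355), yet its mean level of 3.41 lay below the array medians. That call was lost without the third control array, where the change was -0.22, without any 1 treated array, with the replicate block and with only these groups fitted (adjusted p = 0.131). The change was below 0 for all 10 TOMM genes, and 8 passed the test, among them TOMM34, a cytosolic partner of import that is no subunit of the complex.

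In the TIM23 complex the call was lower for every gene except TIMM17B. TIMM44 holds the import motor, the mitochondrial Hsp70, at the channel. Its signals were 7.90, 8.07 and 7.98 with decitabine plus panobinostat, against 9.14, 9.12 and 9.27 in control. The groups were more than 1 log2 unit apart, with a change of -1.19 ± 0.15 (SE, limma adjusted p = 2.27e-05). TIMM50, which receives presequences in the intermembrane space, fell by 1.03, and TIMM23, the channel-forming core, by 0.52 on the log2 scale.

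TIMM17A and TIMM17B are alternative partners of TIMM23. TIMM17A had 5.59, 5.36 and 4.93 with decitabine plus panobinostat, against 6.93, 6.71 and 6.35 in control, a change of -1.37 ± 0.33 (SE, limma adjusted p = 0.00526). TIMM17B had 5.81, 5.48 and 5.76 with the combination and 5.12, 5.66 and 6.03 in control. The TIMM17B arrays overlapped and the change was 0.08 ± 0.37 (SE, limma adjusted p = 0.917). It turned to -0.09 with centred arrays, and the difference between the 2 genes was not tested.

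Of the genes that handle carrier proteins, TIMM9 fell furthest. TIMM9 forms a chaperone ring with TIMM10 in the intermembrane space. TIMM9 had 5.92, 6.74 and 6.81 with decitabine plus panobinostat, against 8.15, 7.83 and 7.90 in control. All treated arrays were at least 1 log2 unit below all controls, and the change was -1.47 ± 0.22 (SE, limma adjusted p = 0.000112), or 2.77-fold lower. TIMM10 fell by 0.74 on the log2 scale. TIMM8A, the gene of deafness-dystonia syndrome, and its ring partner TIMM13 fell by 1.01 and 1.003, and TIMM8B by 0.81. TIMM10B, which docks the chaperones on TIM22, gave -0.42 ± 0.18 (SE, limma adjusted p = 0.125), with no overlap between the arrays.

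**Figure D2:**
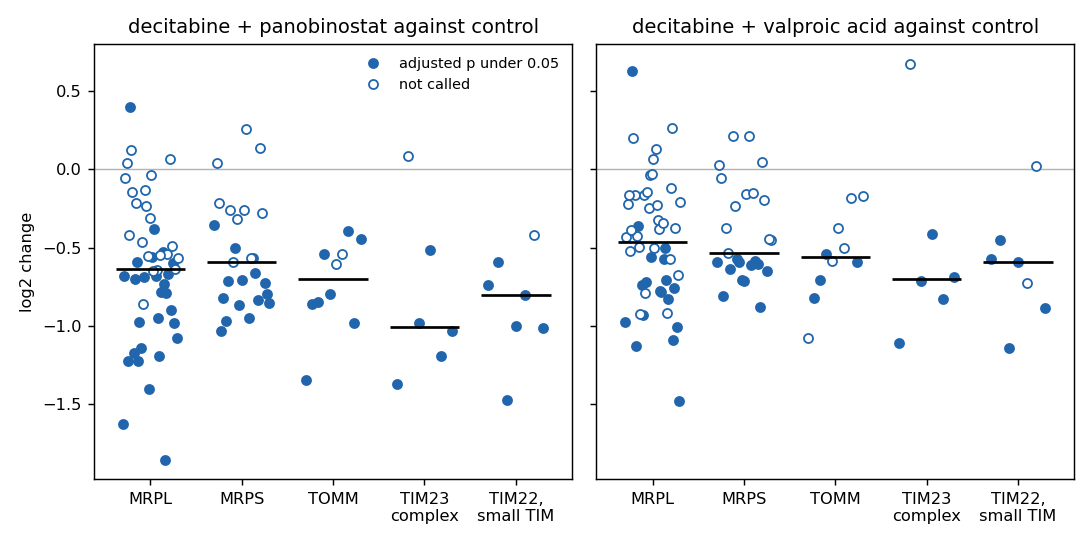
Log2 change of each protein-coding member against control with decitabine plus panobinostat (left) and decitabine plus valproic acid (right), by role. Filled points passed an adjusted p under 0.05, open points did not, and bars are medians; the medians on the left run from -0.59 for MRPS genes to -1.005 for the TIM23 complex.

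Decitabine plus valproic acid gave 45 members called lower and 1 higher, where 17% of all genes were called, 8.06% lower and 8.9% higher. The median change of the members was -0.52, beside -0.02 over all genes, and 15.4% of the genes with a mean level of at least 5 were called lower. The calls comprised 17 of 48 large-subunit genes, 12 of 25 small-subunit genes, 4 of 10 TOMM genes, 5 of 6 TIM23 genes and 5 of 7 genes of TIM22 and the small TIM chaperones.

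MRPL45, which sits by the tunnel exit where the ribosome meets the inner membrane, had the largest fall. Its signals were 9.15, 9.02 and 8.99 with decitabine plus valproic acid, against 10.73, 10.71 and 10.15 in control. The groups were separate, with a change of -1.48 ± 0.18 (SE, limma adjusted p = 3.58e-05). Its pseudogene MRPL45P2 fell by 1.38, and because probes may not tell the 2 apart this is not an independent observation.

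MRPL24, MRPL9, MRPL32, MRPL1 and MRPL19, all with bacterial counterparts, fell by 1.13, 1.09, 1.01, 0.97 and 0.93 on the log2 scale. The calls for MRPL24, MRPL1 and MRPL19 were kept whichever array was left out, and those for MRPL9 and MRPL32 were not. With only the groups compared the MRPL32 call was lost (limma adjusted p = 0.0693). TIMM9 had 7.13, 6.72 and 6.61, against 8.15, 7.83 and 7.90 in control, a change of -1.14 ± 0.22 (SE, limma adjusted p = 0.00172). TOMM20 changed by -1.08 ± 0.37 (SE, limma adjusted p = 0.0565), with treated arrays at 7.30, 6.80 and 5.41. All 3 lay below the controls, but their range was the widest of its groups, and the call was made when the first treated array was left out (adjusted p = 0.00945). It was also made with centred arrays, a mean level of at least 5, the replicate block and the trended robust fit (adjusted p = 0.0246 to 0.0367).

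Single agents gave fewer called members. TOMM20 was not called, at -0.84, -1.13 and -1.15 with decitabine, panobinostat and valproic acid (limma adjusted p = 0.261, 0.0785 and 0.0733). All its treated arrays lay below control. With only the groups compared each of these TOMM20 falls was called (limma adjusted p = 0.0161, 0.00271 and 0.00848). Decitabine alone gave 4 members called lower and 0 higher, where 3.96% of all genes were called, 1.39% lower and 2.57% higher, with a median change of -0.18 beside -0.01 over all genes. The 4 were MRPL45 (-0.82 ± 0.18), MRPL19 (-0.74 ± 0.18), TIMM21 (-0.47 ± 0.12) and MRPS35 (-0.41 ± 0.10), changes with SE and limma adjusted p between 0.0139 and 0.0427. TIMM21 links the TIM23 complex with the respiratory chain, and MRPS35 is a small-subunit protein without a bacterial counterpart. None of the 4 calls was kept whichever array was left out, the count of called members then being 0 to 2. With only the groups compared all 4 were lost (adjusted p = 0.0533 to 0.0811), and the 2 members then called were others.

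Panobinostat alone gave 12 members called lower and 1 higher, where 7.39% of all genes were called, 3.47% lower and 3.92% higher. The median change was -0.25, beside -0.02 over all genes. MRPL4 had 8.05, 7.74 and 8.34 with panobinostat, against 8.92, 9.11 and 9.10 in control, a change of -0.998 ± 0.21 (SE, limma adjusted p = 0.00691). TIMM44 had 8.27, 8.17 and 8.27, against 9.14, 9.12 and 9.27 in control, a change of -0.94 ± 0.15 (SE, limma adjusted p = 0.000862). Neither gene overlapped between the groups. TIMM9, TIMM50, TOMM34, MRPL2, MRPS9, MRPS5 and MRPS18B fell by 0.75, 0.72, 0.68, 0.64, 0.52, 0.50 and 0.44 on the log2 scale. The TIMM9 call was lost with the replicate block and with adjustment over all probe sets (adjusted p = 0.0664 and 0.0655). The MRPS9 call was lost in 4 other settings (adjusted p = 0.0598 to 0.0648). With only the groups compared the calls for MRPS5, TOMM34 and MRPS18B were lost too (adjusted p = 0.145, 0.0553 and 0.0870). The calls for MRPL2, MRPL4, MRPS12 and TIMM44 were kept whichever array was left out, but the 13 calls became 5 without the third panobinostat or the third control array and 7 without the first control array.

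Valproic acid alone gave 13 members called lower and 1 higher, where 7.47% of all genes were called, 2.74% lower and 4.73% higher. The median change was -0.31, beside -0.00423 over all genes. MRPL21 had 5.78, 5.67 and 6.69 with valproic acid, against 7.53, 7.25 and 7.91 in control. The groups did not overlap and the change was -1.52 ± 0.35 (SE, limma adjusted p = 0.0134). MRPL45, TIMM44, TIMM9, TIMM8A, MRPL15, MRPS18B and MRPL2 fell by 0.88, 0.82, 0.81, 0.78, 0.64, 0.57 and 0.57. MRPL53 was higher with each inhibitor, by 0.54 ± 0.14 with panobinostat and 0.51 ± 0.14 with valproic acid (SE, limma adjusted p = 0.0218 and 0.0331). The panobinostat call for MRPL53 was lost whichever array was left out. Its valproic acid call was kept in 1 of 6 such fits, and was lost with centred arrays (0.43, adjusted p = 0.0744) and with only the groups compared (adjusted p = 0.0929). With only the groups compared the valproic acid calls for TIMM8A, MRPL15 and MRPS12 were lost too (adjusted p = 0.0543, 0.0763 and 0.0581). The calls for MRPL45, MRPS15, MRPS18B, MRPS35, TIMM44 and TIMM8A were kept whichever array was left out, and that for MRPL21 was not. The 14 valproic acid calls became 7 without the first control array and 8 without the third control array or the first valproic acid array.

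**Figure D3:**
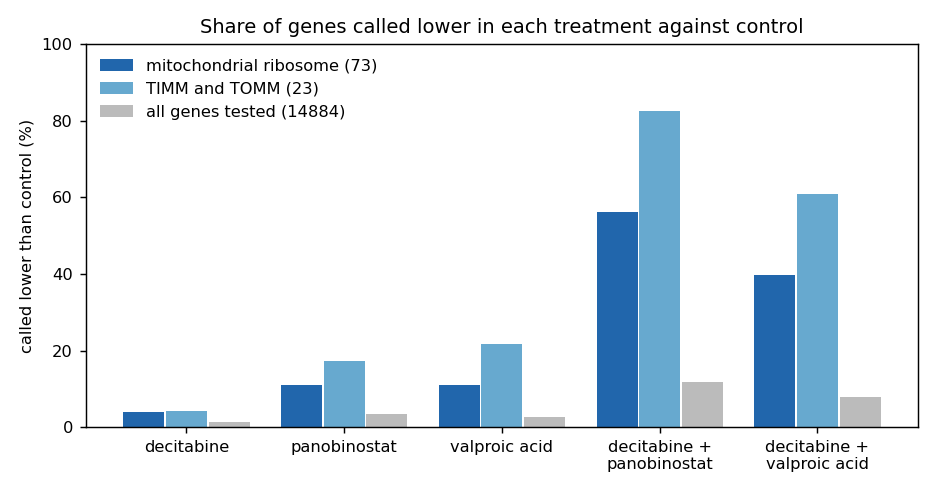
Share (%) of the 73 coding ribosome members, the 23 TIMM and TOMM genes and all 14884 genes called lower than control in each treatment. The import genes reach 82.6% and the ribosome genes 56.2% with decitabine plus panobinostat, where all genes reach 12%.

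What each agent added was tested within the combinations. These comparisons share arrays with those against control and are not independent of them. Decitabine plus panobinostat against decitabine gave 33 members called lower and 1 higher, the pseudogene MRPL42P5 (0.95 ± 0.18, SE), where 15.6% of all genes were called, 7.91% lower and 7.66% higher. TIMM44 had 7.90, 8.07 and 7.98 with both agents, against 9.21, 8.94 and 9.19 with decitabine, a change of -1.13 ± 0.15 (SE, limma adjusted p = 0.000121). MRPL21, MRPL2, MRPL54 and TIMM50 fell by 1.54, 1.40, 1.09 and 1.08 on the log2 scale. Against panobinostat, the combination gave 26 members called lower and 1 higher, where 9.55% of all genes were called, 4.13% lower and 5.42% higher. Without the first panobinostat array 14 members were called. MRPL1, TIMM10, MRPL37, MRPL19 and MRPL2 fell by 1.12, 0.84, 0.78, 0.77 and 0.76. With only the groups compared the TIMM10 call was lost (limma adjusted p = 0.0517). The MRPL54 call against decitabine was lost in that setting too (limma adjusted p = 0.132).

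Decitabine plus valproic acid against decitabine gave 12 members called lower and 0 higher, where 6.13% of all genes were called, 2.57% lower and 3.57% higher. This count was 4 without replicate 2 of the combination, 5 without replicate 3 of it, and 6 without replicate 2 or 3 of decitabine. TIMM44, TIMM50, MRPS34, TIMM13 and MRPL45 fell by 0.77, 0.74, 0.71, 0.66 and 0.65 on the log2 scale. With only the groups compared the calls for TIMM44, MRPS34 and MRPL45 were lost (adjusted p = 0.108, 0.0616 and 0.0919). Against valproic acid, the combination gave 2 called lower and 1 higher, where 4.03% of all genes were called, 1.4% lower and 2.63% higher. Just 1 of the 3 was called without replicate 3 of the combination or replicate 2 or 3 of valproic acid. The 2 were MRPL3, beside the peptidyl transferase centre, at -0.49 ± 0.11, and MRPL37 at -0.46 ± 0.12 (SE, limma adjusted p = 0.015 and 0.0489). With only the groups compared both were lost (adjusted p = 0.164 and 0.145), and the MRPL37 call was also lost among genes with a mean level of at least 5 (adjusted p = 0.0507) and with adjustment over all probe sets (adjusted p = 0.0527).

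MRPS12, a protein of the decoding centre, was lower with each HDAC inhibitor alone and not in the combinations. It had 6.97, 7.06 and 6.81 with panobinostat and 7.08, 7.17 and 7.45 with valproic acid, against 7.75, 7.69 and 7.84 in control. Both groups lay wholly below control, with changes of -0.81 ± 0.13 and -0.52 ± 0.13 (SE, limma adjusted p = 0.00091 and 0.0199). With decitabine plus panobinostat it had 8.21, 7.87 and 7.95, and with decitabine plus valproic acid 7.90, 7.94 and 8.07. MRPS12 was the 1 member called higher in each combination relative to its HDAC inhibitor alone, by 1.06 ± 0.13 against panobinostat and 0.74 ± 0.13 against valproic acid (SE, limma adjusted p = 5.93e-05 and 0.00274). Against control all arrays of both combinations were higher, but neither passed the test, at 0.25 and 0.21 (limma adjusted p = 0.189 and 0.315). With decitabine alone all arrays were above control too, and the change of 0.27 ± 0.13 did not pass either (SE, limma adjusted p = 0.307). The interaction of decitabine and panobinostat for MRPS12 was 0.79 ± 0.18 (SE, limma adjusted p = 0.0652). That of decitabine and valproic acid was 0.47 ± 0.18 (SE, limma adjusted p = 0.519), so neither interaction was called.

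Departure from additivity (the interaction, here the effect of the pair less the 2 single effects added up) was called for 2 members with decitabine and panobinostat, both below 0, where 0.625% of all genes were called. At an unadjusted p under 0.05 there were 16, but the share of all genes at that threshold is not given here. This count is therefore not read as a result about the members. MRPS11, a protein of the small-subunit platform, had 7.06, 7.49 and 7.17 with both agents, 8.02, 7.86 and 7.86 with decitabine, 7.68, 8.04 and 8.25 with panobinostat, and 7.25, 7.72 and 7.53 in control. The combination arrays overlapped control and lay below both single agents, and the interaction was -1.16 ± 0.24 (SE, limma adjusted p = 0.0308). TIMM13 had 9.18, 9.21 and 8.94 with both agents, 10.20, 10.07 and 10.28 with decitabine, 10.09, 9.87 and 9.65 with panobinostat, and 10.13, 10.01 and 10.19 in control. Here the combination lay below all the others, with an interaction of -0.83 ± 0.16 (SE, limma adjusted p = 0.0271). The MRPS11 call was lost with the replicate number as a block (adjusted p = 0.0534), and both calls together held in 1 of the 12 fits that left out 1 array, the one without the second combination array.

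For decitabine and valproic acid limma called 0 members, where 0.0605% of all genes were called. An unadjusted p under 0.05 was found for 4 members, again without the share of all genes beside it. The median interaction was -0.15 with panobinostat and 0.03 with valproic acid, and the difference between these was not tested.

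**Figure D4:**
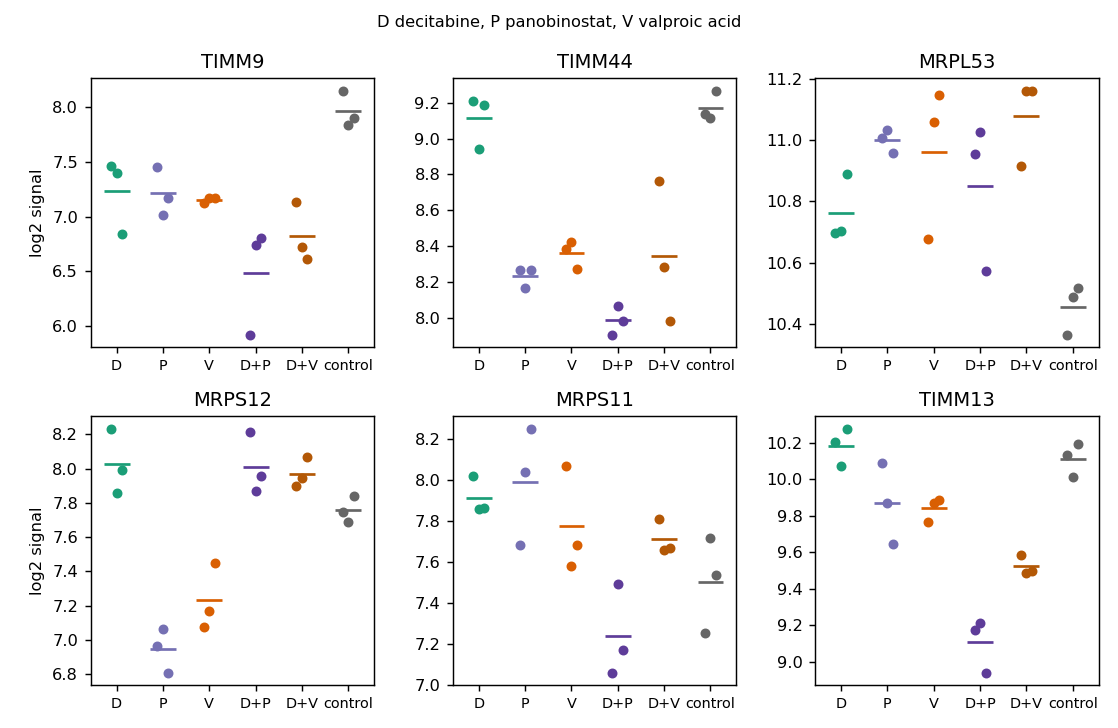
Log2 signal of 6 members on every array, with bars at the group means; the axes differ between panels and do not start at 0. TIMM9 and TIMM44 are lowest with decitabine plus panobinostat, the MRPL53 arrays of each treatment lie above control, though decitabine alone was not called and the decitabine plus panobinostat call was lost on centring, MRPS12 is low with panobinostat or valproic acid alone, and MRPS11 and TIMM13 show the 2 called interactions.

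Panobinostat against valproic acid gave 0 members called by limma, where 0.121% of all genes were called, 0.0739% higher and 0.047% lower. An unadjusted p under 0.05 was found for 8 members, without the share of all genes at that threshold beside it. The doses have no unit, so this is not a comparison at matched dose. Decitabine plus panobinostat against decitabine plus valproic acid gave 2 members called lower, where 0.652% of all genes were called. MRPL2 had 8.32, 8.44 and 8.67 with panobinostat in the combination, against 9.44, 9.10 and 9.41 with valproic acid, a change of -0.84 ± 0.13 (SE, limma adjusted p = 0.00879), a call lost with only the groups compared (adjusted p = 0.215). MRPL44, a large-subunit protein with an RNase III-like fold, had 7.84, 7.87 and 7.60, against 8.30, 8.14 and 8.52, a change of -0.55 ± 0.12 (SE, limma adjusted p = 0.045). Neither gene overlapped between the groups, but a second, dimmer MRPL44 probe set stayed near background at a mean level of 3.45. The MRPL44 call was lost with the mean of both probe sets (-0.26, adjusted p = 0.229). It was also lost with centred arrays, the replicate block, the trended robust fit and only the groups compared (limma adjusted p = 0.0507 to 0.287). Of the 2 calls, 1 was lost without any 1 panobinostat combination array or the second valproic acid combination array.

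Lists of genes that work with the members were counted in decitabine plus panobinostat against control, where 12% of all genes, and 23.3% of those with a mean level of at least 5, were called lower. No gene of the 6 lists in this paragraph and the next was called higher. Of 19 measured assembly factors of the mitochondrial ribosome 13 were called lower and 0 higher, with a median change of -0.90. DDX28, an RNA helicase, MRM1, a methyltransferase of the large ribosomal RNA, and FASTKD2, an RNA-binding protein, fell by 1.97, 1.67 and 1.497 on the log2 scale. FASTKD2 had 6.88, 6.48 and 6.65 with the combination, against 8.09, 8.25 and 8.16 in control, with no overlap (limma adjusted p = 1.41e-05).

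Of 10 mitochondrial translation factors 5 were called lower, MRRF, which recycles ribosomes, by 1.24, TACO1 by 0.76 and MTIF2, an initiation factor, by 0.59. Of 3 measured genes of mitochondrial DNA replication and transcription 2 fell: TWNK, the replicative helicase, by 1.88 and POLRMT, the RNA polymerase, by 1.22. Among 8 matrix chaperones and proteases 4 fell, led by HSPD1, which folds imported proteins, at -1.55 and TRAP1 at -1.54, with the protease subunit AFG3L2 at -0.77. Import partners outside the naming rule gave 7 lower of 14, among them CHCHD4 (-1.53), which oxidises small proteins of the intermembrane space, the presequence-processing enzyme MIPEP (-1.06) and IMMP2L (-0.95). Of 4 ribosome proteins with other names CHCHD1 and PTCD3 fell, by 0.85 and 0.36, the PTCD3 call being lost with the replicate block (adjusted p = 0.0555) and with only the groups compared (adjusted p = 0.0582).

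The other ribosome and the respiratory chain served for comparison, and no test was made between lists. Of 56 cytosolic ribosomal proteins 25 were called lower and 1 higher, with a median change of -0.39. Of 33 nuclear respiratory chain genes 9 were called lower and 1 higher, with a median of -0.27. The corresponding coding members of the mitochondrial ribosome gave 41 lower and 1 higher of 73, with a median of -0.63.

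Among 6 measured regulators of nuclear genes for mitochondrial proteins 3 fell with decitabine plus panobinostat. MYC had 9.19, 9.32 and 8.76, against 10.74, 10.61 and 10.79 in control, a change of -1.63 ± 0.22 (SE, limma adjusted p = 4.64e-05). NRF1 had 6.69, 7.41 and 7.09, against 7.87, 7.86 and 8.24 in control, a change of -0.92 ± 0.21 (SE, limma adjusted p = 0.00348), and YY1 fell by 0.62. With decitabine plus valproic acid MYC fell by 1.59, and NRF1 did not pass the test, at -0.32 ± 0.21 (SE). GABPA, PPRC1 and TFAM had no named probe set here. The part of these regulators in the members' change was not tested.

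Member promoters with and without a motif were set beside the calls as a description. With a YY1 match, 22 of 27 members were called lower in decitabine plus panobinostat, and 32 of 59 without one. With an ETS match the counts were 18 of 37, and 36 of 49 without. The counts with and without a match were 5 of 8 and 49 of 78 for NRF1, 6 of 8 and 48 of 78 for the E-box, and 19 of 27 and 35 of 59 for CCAAT. With any of NRF1, ETS or YY1 they were 37 of 60, and 17 of 26 without. Of the 86 members 21 (24.4%) had another coding gene starting on the opposite strand within 1000 bases, against 10.3% of all coding promoters. MRPS11 and MRPL46, a large-subunit gene named here as its neighbour, start 320 bases apart. Their interactions of decitabine and panobinostat were -1.16 and -0.07. This 1 pair does not stand for the others. Of 14 measured neighbours 6 were called lower with decitabine plus panobinostat and 0 higher, where 12% of all genes were called lower. Member and neighbour were both called lower in 3 of these pairs. Whether neighbours move together was not tested.

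Myeloid markers moved in the same arrays. With decitabine plus panobinostat LYZ, the lysozyme of monocytes, rose by 2.24 and the macrophage marker CD68 by 1.61, while MPO, the peroxidase of immature myeloid cells, fell by 0.93. SPI1 was also called lower, and CD4 was not called, so that 4 of 5 measured markers changed. Of 3 markers of other cell types EPCAM was called higher, at 4.89, 4.06 and 4.40 against 3.58, 3.82 and 3.75 in control, and the means of KRT8 and ALB lay below the array medians in both groups. The summed linear signal of the 5 myeloid markers ranged from 4667 to 5078 with decitabine plus panobinostat, against 6075 to 6537 in control, and that of the 3 other markers from 39.8 to 53.7, against 33.5 to 38.2. MPO was the brightest of the 5 in control and weighs most in their linear sum, which was lower although LYZ and CD68 rose. No marker is at 0 on the log2 scale. The part of this shift in the members' change was not tested.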

How the data were processed

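Per the submitters' processing notes the authors summarised the arrays with RMA, whose version and settings are not given in the sources used here. The deposited values are log2 signals of 48226 probe sets. Probe sets were named through the array's annotation table and updated by gene identifier to RefSeq symbols. Of these, 16098 had 1 symbol, and the other 32128 had none or several and were left out of the gene tests. The brightest probe set stood for each of 14884 genes. With limma 3.58.1 in R 4.3.3, 1 mean per group was fitted to all 18 arrays (12 residual degrees of freedom, empirical Bayes), and p-values were adjusted over all genes for each of 13 comparisons. The code was first tested on simulated data. No low-level filter was used. Arrays have no read depth, and 3 arrays per group limit the precision.

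The members, the gene lists and the tests were chosen with earlier results of these data known. Genes were named by rule: the largest called falls and rises of each comparison (10 with control, when the arrays did not overlap, and otherwise 5), the brightest and dimmest probe set of each role, a fixed set of import genes and MRPS18 genes, and up to 3 called genes of each list. Not every gene of the rule is printed for every comparison. Alternatives were the mean of all probe sets, a mean level of at least 5, centred arrays, a replicate block, only the groups compared, a trended robust fit, adjustment over all probe sets, the array table's symbols, and leaving out each array.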

Additional observations from a re-analysis of the deposited data

Results flagged for a closer look

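The interaction of decitabine and panobinostat differed from 0 for 2 members by its own test, meaning that panobinostat changed the gene by a different amount in cells given decitabine than in cells without it. For MRPS11 the interaction was -1.16 on the log2 scale and for TIMM13 it was -0.83. For MRPS11 the difference was -0.67 ± 0.17 when panobinostat was added to decitabine (SE, limma adjusted p = 0.0113), and 0.49 ± 0.17 when it was added to control cells, which did not pass (adjusted p = 0.0934). For TIMM13 the corresponding differences were -1.07 ± 0.12, which passed, and -0.24 ± 0.12 (SE), which did not (limma adjusted p = 0.256). With the groups compared fitted alone the TIMM13 call was lost (adjusted p = 0.067). The sign of both interactions was kept in every fit that left out 1 array, but both calls together held in only 1 of those 12 fits.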

How the results depend on the processing

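Centring the arrays on their medians was the 1 other scaling run. The array median over all genes was higher than in control by 0.17 with decitabine plus panobinostat and by 0.16 with decitabine plus valproic acid. Centring takes this shift out of every gene, so it lowers the change against control of every gene in both combinations, member or not. Taken gene by gene, though, the median difference from control on these arrays was only -0.03 to -0.01. After centring the members' median change became -0.81 and -0.68, with 79 and 67 members called. Under centring panobinostat called 22, decitabine plus panobinostat against panobinostat 41, decitabine plus valproic acid against decitabine 22 and against valproic acid 7, and the combinations against each other 1. Genes with a mean level of at least 5 gave 23 for panobinostat and 20 for decitabine plus valproic acid against decitabine. With only the groups compared, decitabine called 2, neither of them among the 4 called with all groups fitted, decitabine plus panobinostat against panobinostat 11, decitabine plus valproic acid against decitabine 2 and against valproic acid 1, the interaction of decitabine and panobinostat 1, and the comparison between combinations 0. A trended robust fit called 8 for decitabine, 5 for decitabine plus valproic acid against valproic acid and 1 between the combinations, and the mean of all probe sets called 1 between the combinations. Some of these settings use fewer arrays or genes. The share of all genes called in each setting is not given here. The counts in this section therefore do not show a stronger or weaker result for the members than for all genes. The cause of the differences between settings was not tested.

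With the replicate number as a block, 1 member was called between the combinations and 1 in the interaction of decitabine and panobinostat, and 64 and 45 members were called in the 2 combinations against control. The labels do not say whether the numbers pair the arrays, and the values do not settle it. Same-numbered arrays of different groups had correlations of deviations from -0.11 to 0.10. Their median was 0.02, against -0.003 for arrays with different numbers. Of 18 arrays, 8 correlated best with their own number.

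Leaving out each array in turn gave 0 to 2 calls for decitabine, 5 to 11 for panobinostat, 7 to 13 for valproic acid, 51 to 61 for decitabine plus panobinostat and 31 to 45 for decitabine plus valproic acid against control. It gave 25 to 32 and 14 to 23 for decitabine plus panobinostat against decitabine and against panobinostat, 4 to 18 and 1 to 4 for decitabine plus valproic acid against decitabine and against valproic acid, 1 to 2 between the combinations, 0 to 2 for the interaction with panobinostat, and 0 to 0 for the interaction with valproic acid and for the inhibitors against each other. The fewest calls came without panobinostat replicate 3 or control replicate 3 (5, panobinostat), control replicate 1 (7, valproic acid), and decitabine plus valproic acid replicate 2 (4, against decitabine). The calls kept whichever array was left out were 43 of 64 for decitabine plus panobinostat and 26 of 46 for decitabine plus valproic acid.

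No value that changed sign passed the test. Among genes near 0, MRPS2 with valproic acid turned to 0.0165 with the mean of its probe sets, and with centred arrays TIMM50 with decitabine turned to -0.0166, TIMM17B with decitabine plus panobinostat to -0.0859 and TIMM10B with decitabine plus valproic acid to -0.14. Leaving out arrays gave, with decitabine, -0.30 to 0.0394 for TIMM8B, -0.11 to 0.0254 for TIMM44, -0.0007 to 0.14 for TIMM50 and -0.34 to 0.0141 for MRPL23. With panobinostat it gave -0.13 to 0.22 for TIMM10, -0.21 to 0.0516 for TOMM20L, -0.14 to 0.0330 for TOMM6 and -0.0231 to 0.33 for MRPL23. With valproic acid it gave -0.11 to 0.10 for TIMM10B and -0.21 to 0.0770 for MRPS2. With decitabine plus panobinostat it gave -0.16 to 0.30 for TIMM17B and -0.28 to 0.0701 for MRPL23, and with decitabine plus valproic acid -0.0625 to 0.14 for TIMM10B. Array signals are compressed near background, which limits what can be seen of dim probe sets such as TOMM20L and MRPL23.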
